A study of Mus musculus with 8 samples.

Results

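Notch receptors, their cofactors and their targets were described in LT-HSCs of asrij KO mice. The set holds 10 genes chosen by symbol: the receptors Notch1, Notch2 and Notch4, the ligand Jag1, the nuclear factors Rbpj and Maml1, the targets Hes1, Nrarp and Dtx1, and the inhibitor Numb. They are 10 of 54749 genes to which the deposited transcripts could be assigned, and all 10 were among the 21902 genes that passed the filter on low counts. Each gene was read from the one of its transcripts that summed to the most counts in the 8 libraries together.

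RNA-seq had been performed on long-term haematopoietic stem cells (LT-HSCs) from the bone marrow of 6-month-old mice, with 4 libraries from asrij floxed mice (replicates 1, 3, 4 and 5) and 4 from asrij KO mice (replicates 2, 3, 4 and 5), each library from a separate mouse. The asrij gene, annotated as Ociad1, encodes an OCIA domain protein of endosomes and mitochondria. The floxed controls were homozygous for the floxed allele and the KO was a whole-body deletion, so all cell types of the KO mice carried it. The RNA-seq methods give the sorted cells as LSK CD150+ CD48+, lineage-negative cells with c-Kit and Sca1, while other assays of the study define LT-HSCs as LSK CD150+ CD48-, and which gate these libraries came from was not settled here.

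Notch receptors are cleaved in the Golgi by Furin and reach the cell surface, where a Jagged or Delta ligand on a neighbouring cell exposes them to ADAM proteases and then to γ-secretase. The released intracellular domain enters the nucleus, binds the DNA-binding protein RBPJ together with a Mastermind coactivator, and switches on targets such as Hes1. Endocytosis sorts the receptor between activation and degradation, with Numb directing it away from signalling, and the pathway is best known in blood for T cell commitment and for the emergence of stem cells in the embryo.

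Depth per library ranged from 23412830 to 44874879 counts over all genes. Ociad1 lay between 11.7 and 19.7 CPM (counts scaled to library size by TMM normalisation) in the KO libraries and between 31.3 and 66.9 CPM in the floxed libraries, so it fell in KO but was not at 0 (counted over the whole gene, log2 fold change -1.58 ± 0.27 SE, adjusted p = 0.0249, edgeR). Across all genes, 651 (2.97%) had an adjusted p under 0.05, 268 higher and 383 lower in KO, and 261 (1.19%) also had an absolute log2 fold change above 1.5. In replicates 3, 4 and 5, the numbers present in both genotypes, 23 genes were called without a block for the number and 44 when it was added. The libraries numbered 4 and 5 differed from those numbered 1 to 3 in both genotypes, and the labels do not say why. Floxed replicate 3 stood apart from the other floxed libraries. Summed stem and progenitor markers (11 genes) lay at 165.6 to 197.7 CPM in floxed and 160.4 to 201.7 CPM in KO, with none at 0, while haemoglobin transcripts took 2.85 to 7.67% of gene counts in floxed and 12.2 to 24.3% in KO. Ngp, a neutrophil granule gene, reached 18427 CPM. The stem and progenitor markers differed widely in level, with Procr, a marker of LT-HSCs, between 0.142 and 0.962 CPM and Kit between 46.8 and 60.2 CPM. Of the genes named in the gate, Slamf1 (CD150) lay between 0.881 and 4.39 CPM and Cd48 between 35.2 and 55.2 CPM. How these RNA levels relate to the gate was not tested. Transcripts of mature blood cells were thus abundant in sorted LT-HSCs, and for every gene below, fewer cells of a type and less RNA per cell cannot be told apart.

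None of the 10 members passed an adjusted p of 0.05 between KO and floxed (edgeR quasi-likelihood test with Benjamini-Hochberg adjustment over all 21902 genes, background 2.97%). At an unadjusted p under 0.05 there were 5 of 10 against 21.8% of all genes, 1 higher in KO (Hes1) and 4 lower (Notch1, Notch2, Maml1 and Numb). The floxed and KO libraries did not overlap for 3 of 10 members (Notch2, Numb and Hes1), against 14.8% of all genes. The median log2 fold change of the members was -0.39, with 6 below and 4 above 0, and that of all tested genes was -0.01. The receptors Notch1 and Notch2, the ligand, the nuclear factors and Numb were on the lower side, and the 3 targets and Notch4 were on the higher side.

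**Figure D1:**
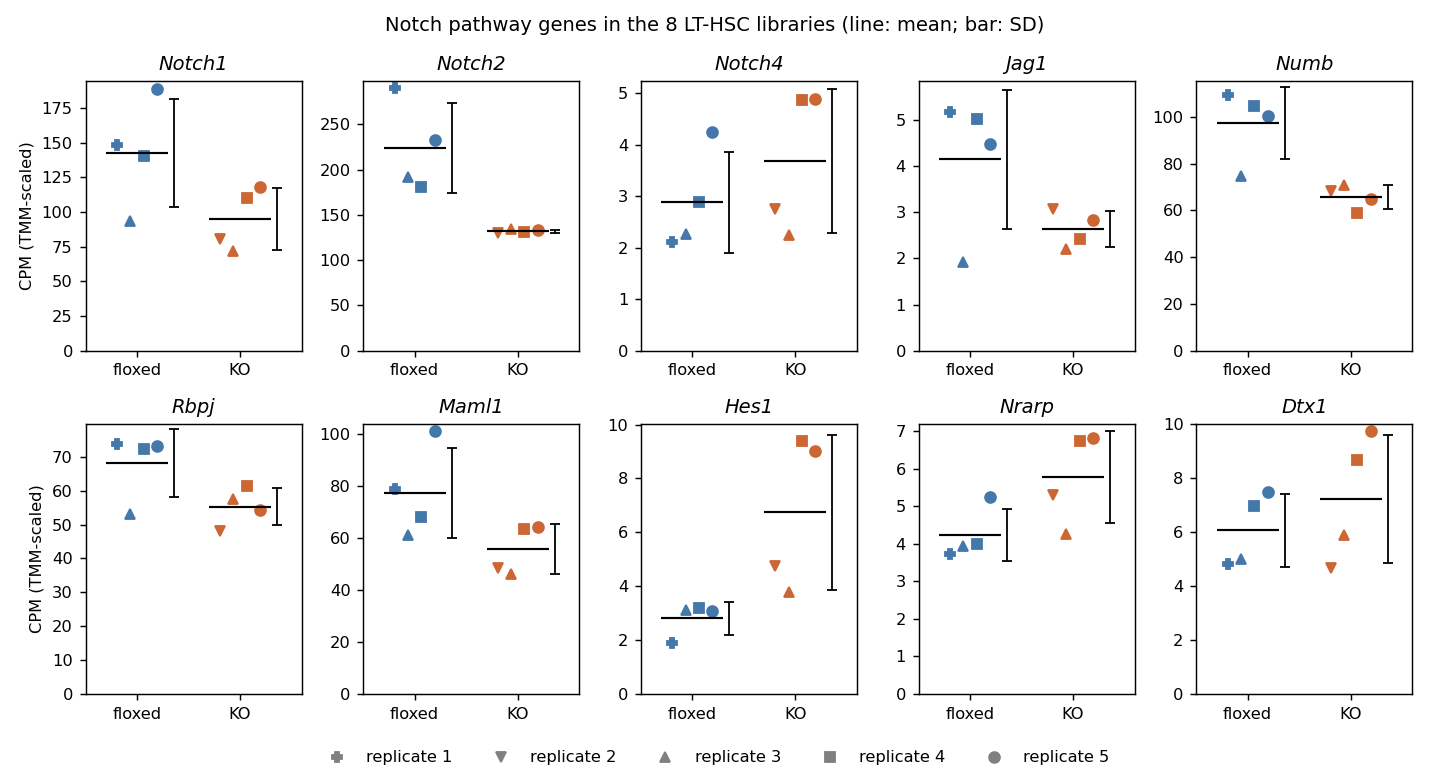
Level of each of the 10 genes in CPM (y axis from 0, TMM-scaled) in the 4 floxed and 4 KO libraries, with 1 point per library, marker shapes for replicate numbers, a line at the mean and a bar of 1 SD. The KO libraries of Notch2 sit together between 129 and 134 CPM below every floxed library, while those of Hes1 spread from 3.80 to 9.40 CPM above every floxed library.

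Notch2, the receptor needed for marginal zone B cells, gave the adjusted p closest to the threshold. It lies on chromosome 3 at 98013538 to 98150361 (GRCm38, + strand). Its levels were 290, 192, 181 and 233 CPM across floxed replicates 1, 3, 4 and 5, against 129, 134, 131 and 133 CPM across KO replicates 2, 3, 4 and 5. All 4 KO libraries were below all 4 floxed libraries, and the KO libraries differed from each other by far less than the floxed ones. The means were 224 ± 49 CPM in floxed and 132 ± 2.0 CPM in KO (SD, n = 4 each), which gave a log2 fold change of -0.76 ± 0.18 (SE, adjusted p = 0.0522, edgeR). Leaving out the haemoglobin genes put it under the threshold (adjusted p = 0.0498, edgeR).

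Notch1, the receptor that drives T cell commitment, lies on chromosome 2 at 26457903 to 26503822 (- strand). Floxed replicates 1, 3, 4 and 5 had 148, 93.3, 140 and 188 CPM, and KO replicates 2, 3, 4 and 5 had 80.6, 71.7, 110 and 118 CPM. Floxed replicate 3 fell within the KO range and the other floxed libraries lay above it. The log2 fold change was -0.58 ± 0.24 (SE, adjusted p = 0.202, edgeR). The last bases of Notch1 overlap 0610009E02Rik on the other strand over 3.24% of the Notch1 span, and that gene held 35.7% of the Notch1 count. The counting is not stated to use strand, so reads of the overlap cannot be assigned to either gene.

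Notch4, a receptor known from endothelial cells (chromosome 17, 34564268 to 34588503, + strand), was low, with 68 to 137 counts per library. It gave 2.11, 2.27, 2.89 and 4.25 CPM across floxed replicates 1, 3, 4 and 5, against 2.74, 2.24, 4.86 and 4.89 CPM across KO replicates 2, 3, 4 and 5. The replicates 4 and 5 were the higher ones in both genotypes and the groups overlapped (log2 fold change 0.36 ± 0.35 SE, adjusted p = 0.604, edgeR). The summed endothelial markers (5 genes, none at 0) lay at 6.63 to 17.1 CPM in floxed and 15.8 to 22.2 CPM in KO, and their part in the Notch4 values was not tested.

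Jag1, the ligand of the set, is a membrane protein presented by stromal, endothelial and some blood cells, and its gene lies on chromosome 2 at 137081456 to 137116644 (- strand). Floxed replicates 1, 3, 4 and 5 had 5.17, 1.93, 5.02 and 4.48 CPM, and KO replicates 2, 3, 4 and 5 had 3.08, 2.21, 2.41 and 2.83 CPM. Floxed replicate 3 was the lowest of the 8 libraries and the other 3 floxed libraries were above all KO libraries. The fold change was -0.65 ± 0.32 on the log2 scale (SE, adjusted p = 0.277, edgeR). The 6 summed stromal markers lay at 70.7 to 75 CPM in floxed replicates 1, 4 and 5, 242 CPM in floxed replicate 3 and 176 to 189 CPM in KO. Summed plasma cell markers and summed neutrophil and myeloid markers (levels below) were instead highest in floxed replicates 1, 4 and 5. The part of any of these cells in the Jag1 values was not tested.

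Numb, the endocytic adaptor that inhibits Notch, lies on chromosome 12 at 83794034 to 83921934 (- strand). Its levels in floxed replicates 1, 3, 4 and 5 were 109, 75, 105 and 100 CPM, and in KO replicates 2, 3, 4 and 5 they were 68.2, 71.0, 59.1 and 64.8 CPM. The groups did not overlap, and the nearest values were floxed replicate 3 and KO replicate 3. Means of 97.4 ± 15 and 65.8 ± 5.1 CPM (SD, n = 4 each) gave a log2 fold change of -0.57 ± 0.16 (SE, adjusted p = 0.0778, edgeR).

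Rbpj, the DNA-binding partner of the Notch intracellular domain, differed least among the members on the lower side. Floxed replicates 1, 4 and 5 lay together at 73.9, 72.3 and 73.3 CPM, floxed replicate 3 had 53.2 CPM, and KO replicates 2, 3, 4 and 5 had 48.2, 57.5, 61.3 and 54.3 CPM. Without floxed replicate 3 the groups would not overlap. The log2 fold change was -0.30 ± 0.16 (SE, adjusted p = 0.30, edgeR). Of the 50-base stretches of its transcript, 24.2% also occur in transcripts of other genes, mostly in Rbpj-ps3, so part of its count is uncertain.

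RBPJ binds a core motif, TGGGAA, which was searched in the promoters of the members. In RefSeq promoters (GRCm38.p6), the 250 bases before each annotated start were searched for TGGGAA on both strands. Promoters were matched for 9 of the 10 members (12 promoters), and Hes1 was not searched. Of the 12, 2 overlapping promoters of Rbpj held the motif, where 21.6% of all 32851 promoters did. With so few promoters, and both hits in the same gene, no difference from that share can be read. The sites are shown on the + strand because they are the letters RBPJ is known to read, with the motif or its reverse complement in capitals.
Rbpj, chr5:53590187-53590212: tgaaaaaggcTGGGAAcccgcggcga
Rbpj, chr5:53590271-53590296: cgctcgcattTTCCCAggacccctcc
The TGGGAA site begins 149 bases before 1 start of Rbpj, and the reverse site begins 65 bases before that start and 205 bases before another. Both lie inside the counted span of Rbpj, which runs from 53555834 to 53657358 on chromosome 5. A match of letters is no evidence of binding, and its absence from the other windows says only that these letters are not there.

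Maml1 (chromosome 11, 50255634 to 50292311, - strand), the Mastermind coactivator that bridges the Notch complex to histone acetyltransferases, was lower in KO on average, with overlap. Floxed replicates 1, 3, 4 and 5 had 79.1, 61.2, 68.1 and 101 CPM, and KO replicates 2, 3, 4 and 5 had 48.7, 46.2, 63.7 and 64.3 CPM. Floxed replicate 3 fell just under the 2 higher KO libraries. The log2 fold change was -0.47 ± 0.20 (SE, adjusted p = 0.200, edgeR). The antisense gene Gm26542 covers 90.5% of the Maml1 span and held 94.5% of its count, so the 2 genes cannot be told apart in these counts.

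Hes1, a basic helix-loop-helix repressor and a classical direct Notch target, was the member with the largest fold. It is a short gene on chromosome 16 at 30065340 to 30067796 (+ strand), with 72 to 265 counts per library. Floxed replicates 1, 3, 4 and 5 had 1.90, 3.10, 3.19 and 3.07 CPM, and KO replicates 2, 3, 4 and 5 had 4.74, 3.80, 9.40 and 9.02 CPM. All KO libraries exceeded all floxed libraries, and KO replicates 4 and 5 were well above KO replicates 2 and 3. With means of 2.81 ± 0.61 CPM in floxed and 6.74 ± 2.9 CPM in KO (SD, n = 4 each), the level was 2.39-fold higher (log2 fold change 1.26 ± 0.34 SE, adjusted p = 0.0725, edgeR). Within replicates 1 to 3 the log2 fold change was 0.78 ± 0.38 and within replicates 4 and 5 it was 1.55 ± 0.18 (SE, 2 against 2 each), and the difference between these was not tested.

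Nrarp (chromosome 2, 25180758 to 25183339, + strand), a target whose product feeds back to limit the Notch complex, had 3.72, 3.93, 4.0 and 5.25 CPM across floxed replicates 1, 3, 4 and 5, against 5.30, 4.26, 6.74 and 6.81 CPM across KO replicates 2, 3, 4 and 5. Only KO replicate 3 lay within the floxed range. The log2 fold change was 0.45 ± 0.23 (SE, adjusted p = 0.284, edgeR). The antisense gene Gm38287 covers 99.1% of its span with a count of 100% of that of Nrarp, so the strand of origin is unknown.

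Dtx1 (chromosome 5, 120680202 to 120711927, - strand), the Deltex ubiquitin ligase and a target in lymphoid cells, gave 4.8, 5.01, 6.97 and 7.47 CPM across floxed replicates 1, 3, 4 and 5, against 4.66, 5.88, 8.69 and 9.75 CPM across KO replicates 2, 3, 4 and 5. Its spread followed the replicate numbers more than the genotypes, with replicates 4 and 5 highest in each group. The log2 fold change was 0.26 ± 0.28 (SE, adjusted p = 0.644, edgeR).

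Every member kept its direction in all 19 alternative fits. Counts of members past an adjusted p of 0.05 moved with the libraries and the tool. There were 6 of 10 without floxed replicate 3 (Notch1, Notch2, Jag1, Rbpj, Hes1 and Numb, background 17.5%), 5 with a term for replicate numbers 4 and 5 (Notch1, Notch2, Maml1, Hes1 and Numb, background 18.5%) and 3 by the DESeq2 Wald test (Notch2, Hes1 and Numb, background 11.2%). Replicates 4 and 5 alone gave the 6 genes called without floxed replicate 3, where 32.8% of all genes passed. Notch2 alone passed without the haemoglobin genes (background 3.36%), and none passed in replicates 3, 4 and 5 with the number as a block (background 0.222%). In these fits the share of all genes past the threshold moved as well.

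**Figure D2:**
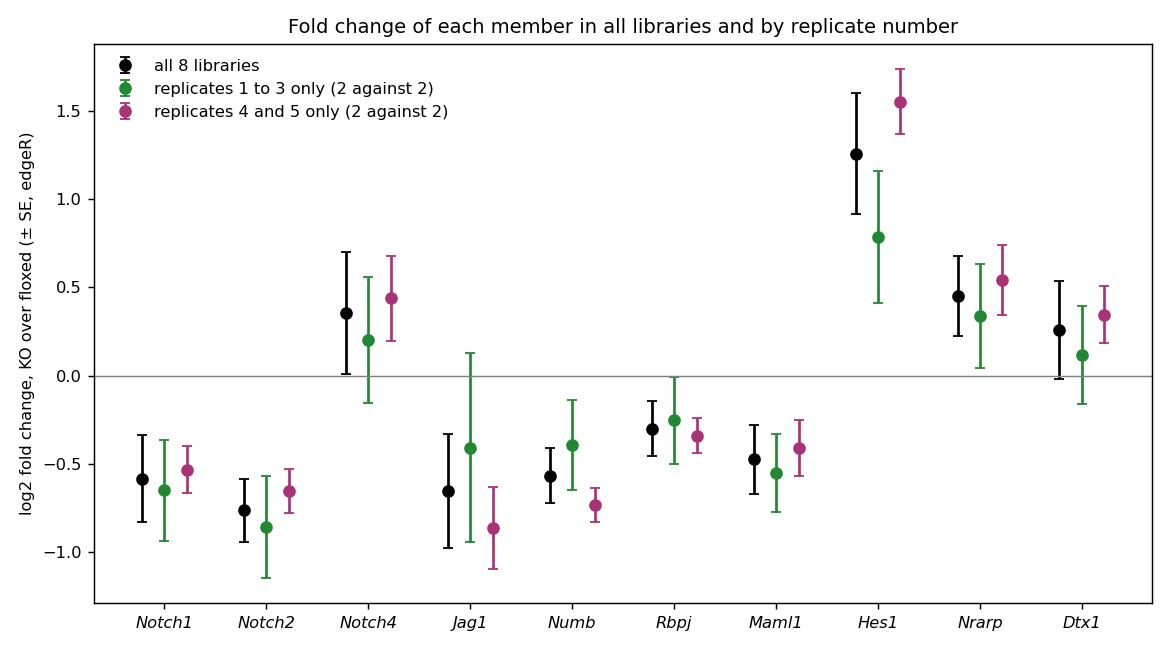
Log2 fold change of each member (KO over floxed, y axis, points with SE from edgeR) in all 8 libraries and within replicates 1 to 3 and replicates 4 and 5 (2 against 2 each). Signs match in all 3 fits for every gene, Notch2 lies at -0.76, -0.86 and -0.65, and Numb lies at -0.57, -0.39 and -0.73.

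Levels of different genes were compared per kb of the counted span. Over all 8 libraries, Notch1 (2.59), Hes1 (1.94), Nrarp (1.94), Maml1 (1.81) and Notch2 (1.30 CPM per kb) had the highest means, and neighbours in this order overlapped in their ranges. The order of their means differed by genotype. In floxed it was Notch1 (3.10), Maml1 (2.11), Nrarp and Notch2 (both 1.64) and Hes1 (1.15 CPM per kb). In KO it was Hes1 (2.74), Nrarp (2.24), Notch1 (2.07), Maml1 (1.52) and Notch2 (0.963 CPM per kb). The KO ranges of Hes1 (1.55 to 3.83), Nrarp (1.65 to 2.64) and Notch1 (1.56 to 2.56 CPM per kb) overlapped. The difference in order was not tested. Numb (0.638) and Rbpj (0.608 CPM per kb) formed the next pair, below the whole range of Notch2, and overlapped each other. Dtx1 (0.210), Notch4 (0.135) and Jag1 (0.0963 CPM per kb) came last, below the whole range of Rbpj, and each overlapped the next. Per kb of spliced transcript the order differed, with Numb first at 23.0 CPM and Notch4 last at 0.498 CPM, since introns are part of the counted span.

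The genomic span varied with the direction of change over all genes. The median log2 fold change was 0.13 for the 5671 genes of at most 3 kb, 0.13 for 3 to 10 kb, 0.00 for 10 to 30 kb, -0.14 for 30 to 100 kb and -0.21 for the 2269 genes over 100 kb. Within replicates 1 to 3 the medians of the shortest and longest class were 0.16 and -0.30, and within replicates 4 and 5 they were 0.04 and -0.09. Per library, genes were also set against their own mean over the libraries, and the median of the longest class was compared with that of the shortest. The longest less the shortest was 0.19, 0.43, -0.06 and -0.19 in floxed replicates 1, 3, 4 and 5. In KO replicates 2, 3, 4 and 5 it was 0.02, 0.06, -0.22 and -0.22 (log2 scale). Hes1 and Nrarp are in the shortest class, and Notch2, Numb and Rbpj are in the longest. Relative to the median of its own class, Hes1 differed by 1.13, Notch2 by -0.55, Jag1 by -0.51, Notch1 by -0.44, Numb by -0.35 and Rbpj by -0.09 on the log2 scale. With a correction for span, Notch2 was at -0.63 (adjusted p = 0.114, edgeR), Numb at -0.46 (adjusted p = 0.232, edgeR) and Hes1 at 1.12 (adjusted p = 0.0711, edgeR).

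**Figure D3:**
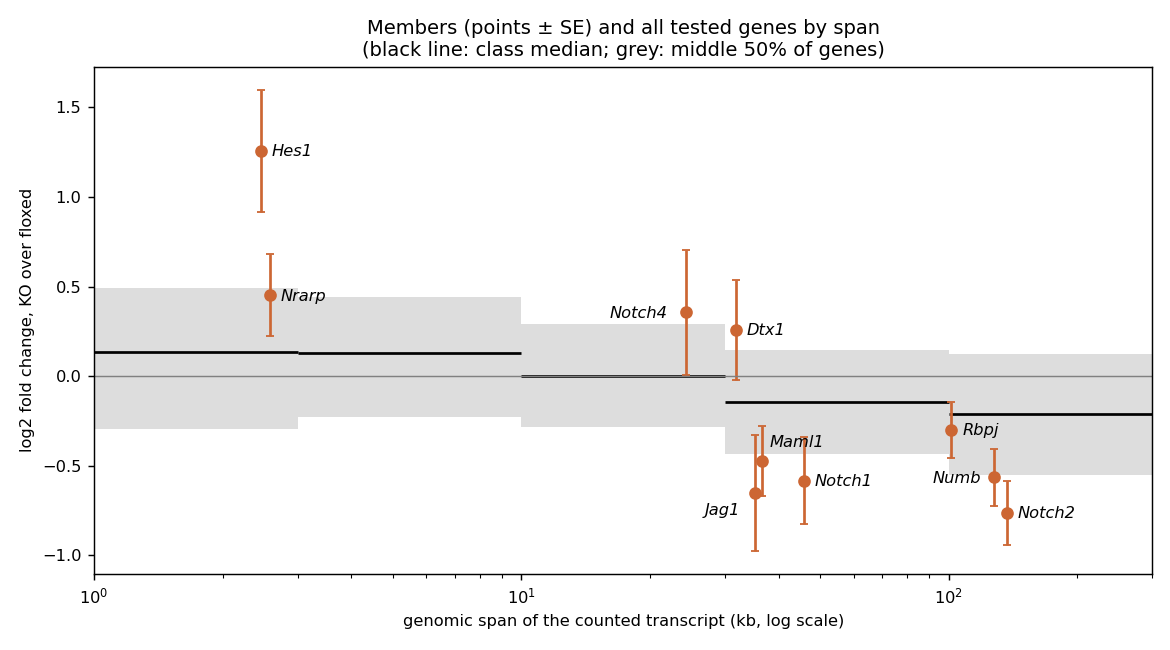
Log2 fold change (KO over floxed, y axis) against the genomic span of the counted transcript (x axis, kb, log scale), with members as points with SE, and for all tested genes the median of each span class as a black line and the middle 50% of genes in grey. Hes1 stands above the grey band of the short genes, and Notch2 and Numb stand below that of the long genes, while Rbpj lies within it. Jag1, Notch1 and Maml1 are also below the band of their class, Dtx1 and Notch4 are above theirs, and Nrarp lies within its own.

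The annotated transcripts of Notch1 and Notch2 allowed the receptors to be read in windows. Each transcript was counted over its own span, and of all 64 transcripts of the 10 members 58 could be tested as features. Of these, 39 were below and 19 above 0, and none went against the direction of its gene. Transcripts of a gene overlap and share counts, so their signs are not independent. Of the 58, 4 had an adjusted p under 0.05 (edgeR with every transcript a feature, background 3.62%), and all 4 belonged to Notch1 or Notch2 and were lower in KO.

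Notch1-206 reaches from 12.8 kb before to 32.5 kb after the start of the main transcript Notch1-201 and covers its exons 1 to 20 of 34. It had 23.9, 22.5, 6.29 and 16.1 CPM across floxed replicates 1, 3, 4 and 5, against 2.46, 3.15, 4.12 and 4.02 CPM across KO replicates 2, 3, 4 and 5. Floxed replicate 4 was nearest to the KO libraries, and the groups did not overlap. It fell in KO with a log2 fold change of -2.21 ± 0.36 (SE, adjusted p = 0.0208, edgeR), against -0.53 ± 0.28 for Notch1-201 in the same fit (adjusted p = 0.297, edgeR). The short transcripts Notch1-202 (over exons 24 and 25) and Notch1-204 (over exons 22 and 23) fell by 1.73 ± 0.30 (adjusted p = 0.0243, edgeR) and by 1.68 ± 0.39 on the log2 scale (SE, adjusted p = 0.0462, edgeR). Windows over exons 27 and 28 ranged from -1.33 (Notch1-210) to -1.11 (Notch1-208), and Notch1-205 over exons 1 and 2 gave -1.61 ± 0.64. None of these had an adjusted p under 0.05 (edgeR). Notch1-207 over exons 32 and 33 gave -0.57 ± 0.34 (adjusted p = 0.348, edgeR).

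The count of Notch1-206, part of which can lie in the 12.8 kb before Notch1-201, came relative to that of Notch1-201 to 16.2, 24.1, 4.49 and 8.54% in floxed replicates 1, 3, 4 and 5 and 3.05, 4.39, 3.73 and 3.42% in KO replicates 2, 3, 4 and 5. Most Notch1 counts of every library were thus outside its first 20 exons, and this ratio varied far more among floxed than among KO libraries. The difference of both counts, a lower bound of the Notch1 count outside the window because of the bases upstream, came to 125 ± 42 CPM in floxed and 91.6 ± 22 CPM in KO (SD, n = 4 each), with overlap. Whether the ratio followed RNA quality was not tested.

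Notch2-202, a retained-intron transcript over exons 1 to 8 of 34 and the first 87.1 kb, had 25.4, 27.2, 9.44 and 14.7 CPM across floxed replicates 1, 3, 4 and 5, against 7.48, 8.32, 6.99 and 7.64 CPM across KO replicates 2, 3, 4 and 5. Floxed replicates 1 and 3 were highest and no floxed library reached down to the KO range. It fell in KO by 1.22 ± 0.27 on the log2 scale (SE, adjusted p = 0.0402, edgeR). The difference of the counts of Notch2 and Notch2-202 came to 205 ± 46 CPM in floxed and 124 ± 1.7 CPM in KO (SD, n = 4 each), without overlap, so the groups also stood apart outside this window.

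**Figure D4:**
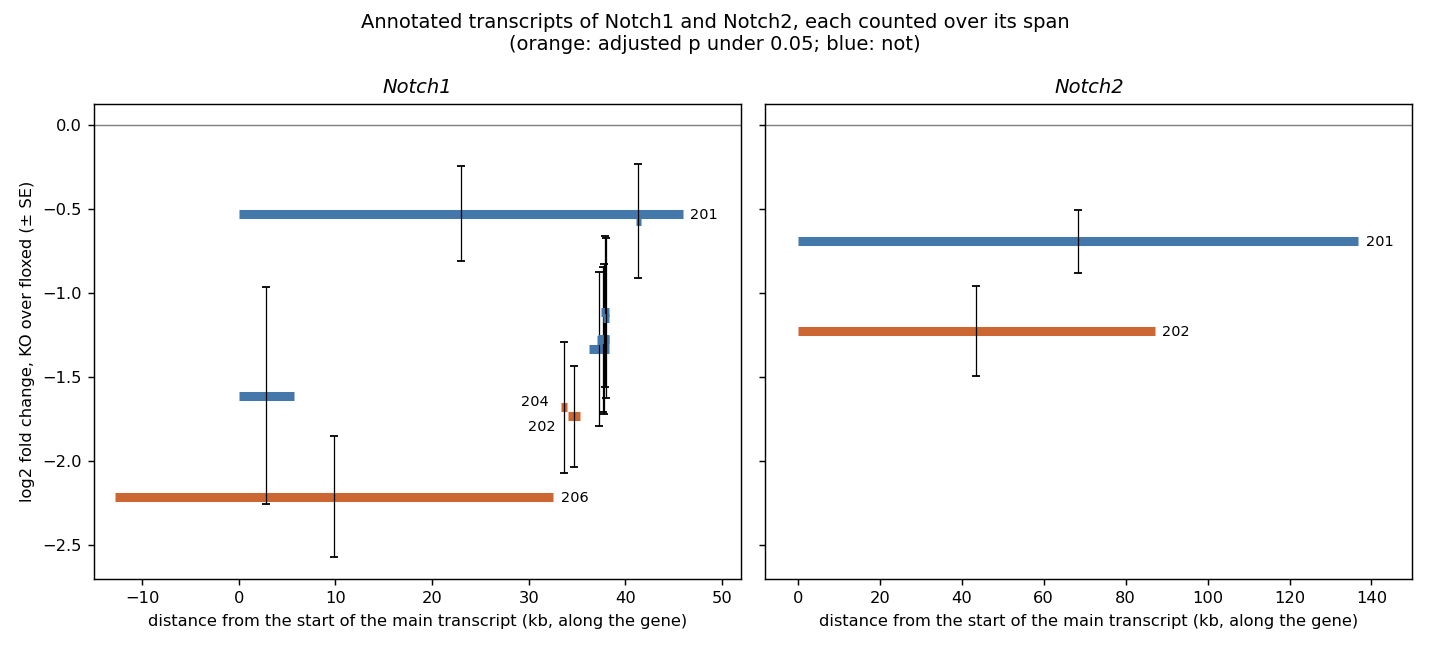
Log2 fold change (KO over floxed, y axis, with SE) of each annotated transcript of Notch1 and Notch2, drawn as a bar over its span in kb from the start of the main transcript along the gene (x axis), orange where the adjusted p was under 0.05. The orange bars are Notch1-206 at -2.21, Notch1-202 at -1.73, Notch1-204 at -1.68 and Notch2-202 at -1.22, and the bars of both full-length transcripts are blue and nearer to 0.

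Around the members, 57 further genes of the pathway were listed by role, of which 52 could be tested. None had a higher level in KO at an adjusted p under 0.05 and 2 had a lower one (edgeR, against the 2.97% of all genes), and at an unadjusted p under 0.05 there were 3 higher and 12 lower of 52 (background 21.8%), while DESeq2 called 7 (background 11.2%). Their median log2 fold change was 0.05. Aph1b, a subunit of γ-secretase, had 46.1, 19.9, 29.2 and 36.6 CPM across floxed replicates 1, 3, 4 and 5, against 15.0, 16.2, 15.8 and 13.6 CPM across KO replicates 2, 3, 4 and 5, without overlap (log2 fold change -1.12 ± 0.24 SE, adjusted p = 0.0426, edgeR). Of the 50-base stretches of its transcript, 19.7% also occur in Aph1c, whose reads may thus be split with it and which gave -0.72 ± 0.17 (SE, adjusted p = 0.0560, edgeR). Dtx3l, a Deltex family ubiquitin ligase, had 64.7, 65.3, 56.5 and 52.1 CPM across floxed replicates 1, 3, 4 and 5, against 38.5, 43.2, 35.6 and 35.0 CPM across KO replicates 2, 3, 4 and 5, also without overlap (log2 fold change -0.65 ± 0.14 SE, adjusted p = 0.0458, edgeR). Both calls were lost in replicates 3, 4 and 5, with or without the replicate block. They were also lost on leaving out any 1 of the 8 libraries except floxed replicate 3. Without that library 11 pathway genes passed (background 17.5%). Aph1b also missed the threshold with counts summed over transcripts, and Dtx3l with no filter on low counts.

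Among the other receptors and ligands, 4 of 7 were tested and none passed, with Notch3 at 0.21 ± 0.35 and Jag2 at 0.20 ± 0.35 (log2 fold change, SE). Of the 10 proteases only Aph1b passed, and Furin (-0.26 ± 0.25) and the γ-secretase subunit Aph1a (0.11 ± 0.27) had the highest levels per kb. None of the 5 glycosylation enzymes passed, with the Fringe genes Rfng and Lfng at 0.43 ± 0.32 and 0.37 ± 0.30. None of the 14 coactivators and corepressors passed, with the corepressor Ctbp1 at 0.45 ± 0.19 and the acetyltransferase Ep300 at -0.48 ± 0.19. Of the 12 trafficking and turnover genes only Dtx3l passed, and Dtx3 was at 0.62 ± 0.25. Among the 9 other targets, 7 were tested and none passed, with Myc at -0.13 ± 0.23 and the cyclin Ccnd1 at 0.26 ± 0.17. At an unadjusted p under 0.05, edgeR gave none among the receptors and ligands, the glycosylation enzymes or the other targets, 4 among the proteases, 5 among the coactivators and corepressors and 6 among the trafficking genes, where 21.8% of all genes passed. The 7 genes called by DESeq2 were 2 proteases, 2 corepressors and 3 trafficking genes.

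**Figure D5:**
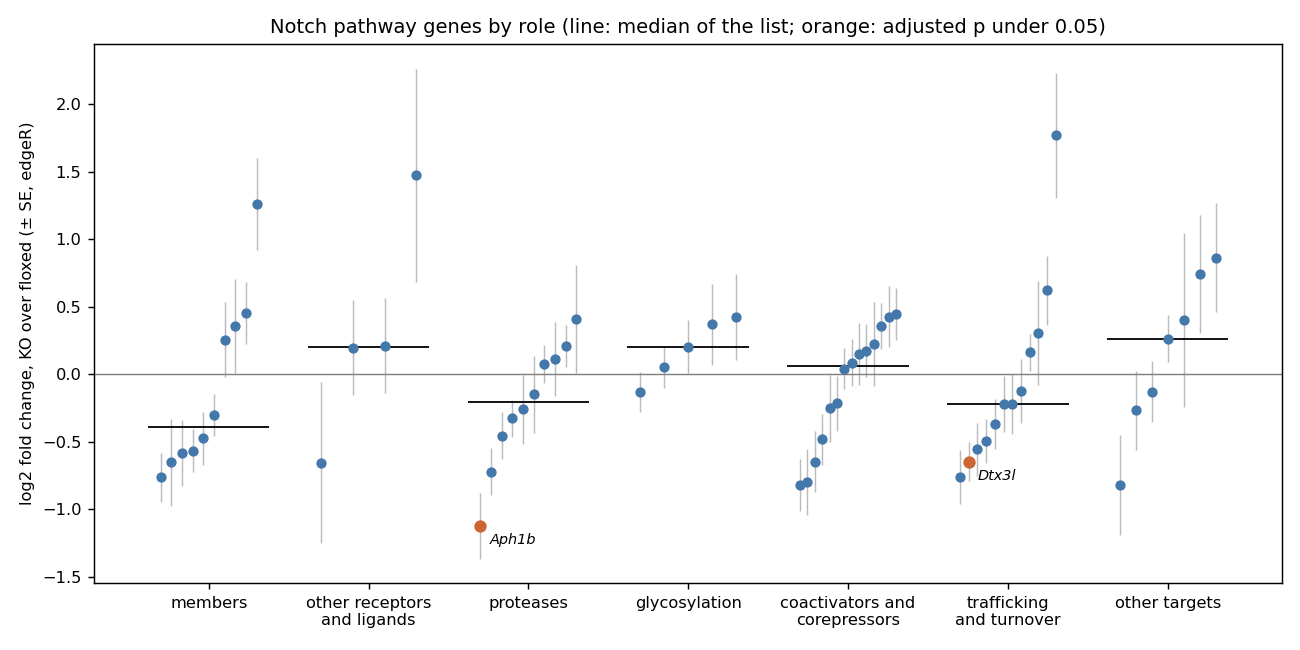
Log2 fold change (KO over floxed, y axis, with SE) of the members and of the tested genes of each role list, with a line at the median of each list and orange points for an adjusted p under 0.05. The median is -0.39 for the members, -0.20 for the proteases and 0.26 for the other targets, and the orange points are Aph1b and Dtx3l.

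Markers of other blood cells moved with the genotype or with floxed replicate 3 beside these genes. Summed neutrophil and myeloid markers (10 genes) lay at 43180 to 49183 CPM in floxed replicates 1, 4 and 5, 15799 CPM in floxed replicate 3 and 23633 to 30037 CPM in KO. Plasma cell markers (4 genes) had 290 to 324 CPM in floxed replicates 1, 4 and 5, 136 CPM in floxed replicate 3 and 134 to 140 CPM in KO. Erythroid markers (10 genes) lay at 27654 to 69828 CPM in floxed and 121819 to 294683 CPM in KO, megakaryocyte markers (6 genes) at 66.5 to 132 and 221 to 264 CPM, B cell markers (8 genes) at 290 to 566 and 528 to 571 CPM, and T and NK cell markers (10 genes) at 53.4 to 65.7 and 47.9 to 49.5 CPM. At an adjusted p under 0.05 (edgeR, background 2.97%), 3 erythroid, 4 megakaryocyte and 2 B cell markers were higher in KO. So was 1 stem and progenitor marker, while 2 plasma cell and 1 T and NK cell marker were lower. None of the neutrophil, endothelial or stromal markers passed. These 3 lists had 0, 3 and 1 at an unadjusted p under 0.05 (edgeR, background 21.8%), and 0, 1 and 1 by DESeq2 (background 11.2%). No listed marker was at 0 in every library, and the part of these cells in the values of Notch1, Notch2, Jag1, Rbpj, Numb and Hes1 was not tested.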

How the data were processed

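Per the labels, FastQC, Trim Galore and Bowtie2 were used for read quality, trimming and alignment, which the study's methods place on GRCm38 (mm10) reference transcripts, and the authors deposited whole-number counts per Ensembl transcript for each library. Tool versions, the counting tool, the annotation release and the use of strand are not given in the sources used here. Of the 8 files, 7 are tab-separated under a comma-separated name and were entered in the unit table as another unit, after all values had been checked to be whole numbers.

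From these counts, genes were looked up in GENCODE M21 (GRCm38), where 138789 of 138930 transcript identifiers were found. In all 4405 pairs with a transcript of at least 800 counts inside an intron of another gene, the count of the host was no smaller than that of the inner transcript, 2891 of the pairs on opposite strands, so counts were read as covering the genomic span with introns and both strands. This differs from an alignment to spliced transcripts, and the levels per kb, the antisense overlaps and the transcript windows rest on it. Unassigned transcripts held 0.0474 to 0.0584% of counts.

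KO was compared with floxed by edgeR 4.0.16 (filterByExpr, TMM, quasi-likelihood test, R 4.3.3), with Benjamini-Hochberg adjustment over all tested genes, an adjusted p of 0.05, and an absolute log2 fold change above 1.5 for calls of genes. DESeq2 1.42.0 was an alternative. On simulated counts with 200 of 21409 genes changed by 2.5 on the log2 scale, edgeR recovered 91% and 1.62% of its calls were false. The simulated libraries had no grouping by replicate number, and the largest member change was 1.26. These rates therefore do not describe the test for the members. CPM used TMM-scaled library sizes. The figures and tables were made with Python 3.11.15. The members, the gene lists and the tests were chosen with earlier results of these data known. Beyond the 10 members, the text names pathway genes with an adjusted p under 0.05, the 2 with the highest CPM per kb in each list, Ociad1, and genes that overlap a member with at least 10% of its count. Aph1c, Cd48, Kit, Ngp, Procr, Rbpj-ps3 and Slamf1 were named after their values were seen.

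Replicate numbers 3, 4 and 5 come from the titles and occur in both genotypes. Deviations from the group means correlated at 0.374 to 0.579 for the 3 same-number pairs, at 0.346 to 0.603 for the 5 other pairs within replicates 1 to 3 or within 4 and 5, and at -0.588 to -0.340 for the 8 pairs across. Same-number pairs (mean 0.449) thus correlated no more than other pairs of the same grouping (mean 0.458). The reported fit had no term for the numbers, which entered only in alternative fits. No source says that they mark a litter, batch or day. Depth limits counts of low genes, and p-values measure the spread between these mice.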

Additional observations from a re-analysis of the deposited data

Results flagged for a closer look

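Among the 20 groups of 4 libraries that the 10 members form, 2 held a library far from the other 3, where chance gives about 1. Rbpj had 53.2 CPM in floxed replicate 3 against 72.3 to 73.9 CPM in the other floxed libraries, with a gap of 0.926 of the whole range, above Dixon's limit for 4 samples. Hes1 had 1.90 CPM in floxed replicate 1 against 3.07 to 3.19 CPM in the other floxed libraries, with a gap of 0.905 of the range. Without floxed replicate 3, the log2 fold change of Rbpj was -0.39 (adjusted p = 0.0453, edgeR), and without floxed replicate 1 that of Hes1 was 1.13 (adjusted p = 0.199, edgeR).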

How the results depend on the processing

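All 10 members kept the sign of their log2 fold change in the 19 alternative fits and in each tested transcript. The fits reuse the same libraries and the transcripts of a gene share counts, so these are not independent checks. The count of members past an adjusted p of 0.05 was 0 in the reported fit, 3 by DESeq2, 1 without haemoglobin genes, 5 with a term for replicate numbers 4 and 5, 6 with replicates 4 and 5 only, and 0 to 6 on leaving out 1 library, the 6 only without floxed replicate 3. Pathway genes numbered 2 in the reported fit, 7 by DESeq2, 1 with no filter on low counts, 15 with the term for numbers 4 and 5, 19 with replicates 4 and 5 only, 0 with replicates 1 to 3 only, and 0 to 11 on leaving out 1 library. The share of all genes past that threshold moved with these counts. It was 2.97% in the reported fit, 11.2% by DESeq2, 3.36% without haemoglobin genes and 18.5% with the term. With replicates 4 and 5 only it was 32.8%, and on leaving out 1 library it was 0.274 to 17.5%. With the replicate block (replicates 3, 4 and 5) there were 0 pathway genes and 44 genes called. The same libraries without the block gave 0 and 23, so the count was below the 261 of the reported fit with and without it. The block changed no call of a member. Genes called numbered 503 by DESeq2, 521 with the term, 2 with replicates 1 to 3 only, 1061 with replicates 4 and 5 only, 651 with no limit on the fold change, and 51 (without floxed replicate 1) to 857 (without floxed replicate 3) on leaving out 1 library. The cause of these shifts was not tested. The fits of replicates 1 to 3, of 4 and 5, of 3 to 5 without block and of the span correction were chosen after seeing the data. The labels give no batch, so a batch and the replicate numbers cannot be told apart. Depth limits Jag1, Notch4, Hes1 and Nrarp, which had 68 to 265 counts per library.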
